A study of Mus musculus with 4 samples.

Results

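The Ca2+/calmodulin-dependent protein kinase II (CaMKII) family was followed here through the 3′ ends of its mRNAs in dendrites of the mouse hippocampus. The genes were the CaMKII subunits Camk2a, Camk2b, Camk2d and Camk2g, the inhibitor genes Camk2n1 and Camk2n2, the pseudokinase gene Camkv, and the related kinases Camkk1, Camkk2 and Camk4. They were selected on gene name with their tag counts in these libraries already known, so their levels and their order are a description and were not tested. They held 20 of the 9297 polyA sites in the table and 10 of its 7202 gene names. The Camk2a sites carried the name Mir6982, a microRNA gene that lies inside Camk2a, and they are called Camk2a below.

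The data were 4 replicate libraries of CA1 neuropil, the layer of the hippocampus that holds mainly the dendrites of pyramidal neurons together with axons and glia. The method was cTag-PAPERCLIP, in which Cre switches on GFP-tagged Pabpc1, a protein that binds poly(A) tails, and the RNA crosslinked to it is purified through GFP, so that each recovered tag marks the 3′ end of an mRNA. All libraries came from C57BL/6 mice of the genotype Camk2a-Cre x Pabpc1-cTag, with no agent given and with tissue pooled from several mice per replicate. The methods refer this dissection to a protocol for adult mice. There was no other group, so no condition was compared. The promoter that drives Cre is that of Camk2a, the most heavily tagged gene of the family, so the cells were selected by the activity of that promoter.

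CaMKII is a holoenzyme assembled from alpha, beta, delta and gamma subunits, each from its own gene. Ca2+ bound to calmodulin opens the kinase, and subunits in the same holoenzyme then phosphorylate each other, which lets activity outlast the Ca2+ signal. In forebrain pyramidal neurons the alpha and beta subunits are the main forms, and Camk2a mRNA is a well-known dendritic mRNA. Camk2n1 and Camk2n2 encode small proteins that bind and inhibit the active kinase, whereas the CaM kinase kinases act on CaMKI and CaMKIV and not on CaMKII.

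The sequences around the sites show what the tags were placed against. The first set below holds the sites that took most tags of their genes, other than Camk2a, Camk4 and Camkk1, whose sequences are not reported here. The capitals mark the polyA signal, the hexamer that directs cleavage of the pre-mRNA. The second set holds sites next to a run of A in the genome, and the capitals there mark that run. Each window is 30 bases of GRCm38.p6 on the strand of the gene, read 5′ to 3′, with 10 bases before the site and 19 after it.
Camk2n1 main site, chr4:138458111-138458140, plus strand: tccagtgtacAATAAAgaactcttcctgtg
Camk2b, chr11:5969665-5969694, minus strand: tttgttctgtctcgggaaactgcaAATAAA
Camk2n2, chr16:20619228-20619257, minus strand: acaggagtgtgtgAATAAAcacagacctcc
Camkv, chr9:107949653-107949682, plus strand: acctggcaAATAAAcgtcaccctgcaaagc
Camk2d main site, chr3:126844880-126844909, plus strand: tttaagagttAATAAAtttgtgatttctgc
Camk2g main site, chr14:20734879-20734908, minus strand: tgaagatatttAATAAAataacctttaaac
Camkk2 main site, chr5:122731177-122731206, minus strand: gtaaacttgaAATAAAcagacagcaaaatg
Camk2n1 proximal site, chr4:138457066-138457095, plus strand: aaacaaaagttAAAAAAAAAcacacaaaaa
Camk2g minor site, chr14:20736632-20736661, minus strand: tttttacatttaagAAAAAAAAAAAAAgaa
Camkk2 minor site, chr5:122733193-122733222, minus strand: attctctttgtaaattggcAAAAAAAAAAA
In the first set the hexamer AATAAA began between 2 bases before and 14 bases after the listed base. The Camk2b hexamer, the farthest on, overlaps the start of a run of 25 A that extends past the printed window. Cleavage normally falls downstream of the hexamer. The listed base of Camk2n1, Camk2d and Camkk2 was the first A of the hexamer, and in Camkv the hexamer began 2 bases before it.

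Replicates 1 to 4 held 16017, 6609, 5947 and 6099 tags, so replicate 1 was the deepest. Where a gene had 0 tags, its share could still be as high as 0.0187%, 0.0454%, 0.0504% and 0.0492% in replicates 1 to 4. Levels below are percentages of all tags of a replicate. Tags come from the 3′ end of an mRNA, so these shares were not scaled by transcript length. Fewer cells of a type and less RNA per cell cannot be told apart in such material. Intervals, limits and tests on tags cover counting error only, since PCR copies of a tag do not count separate molecules.

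The family took 214, 44, 39 and 71 tags in replicates 1 to 4, which was 1.34%, 0.666%, 0.656% and 1.16% of all tags (0.955% ± 0.347, SD, n = 4). Hdac8 held 4030 and Fgf15 755 of the tags of replicate 1, which lowered the shares of all other genes there. With totals that left out the 10 sites with the most tags, the family mean was 1.17% ± 0.617 (SD, n = 4). Camk2a and Camk2n1 together held most of the tags of the family, and the other members were far lower. The median gene name in the table had 2 tags over all replicates. Tags in all 4 replicates were found for 5 of the 10 members, namely Camk2a, Camk2b, Camk2d, Camk2n1 and Camkv, and for 559 of all names (7.76%).

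Camk2a, which encodes the alpha subunit, had 152, 24, 12 and 27 tags in replicates 1 to 4. Its share was 0.949%, 0.363%, 0.202% and 0.443% (0.489% ± 0.323, SD, n = 4). It ranked 6 among all gene names by total tags, to which the deepest library adds most, and 7 by mean share. Replicate 1 was more than double every other replicate, and its 95% Wilson interval of 0.810% to 1.11% did not meet that of replicate 4, 0.304% to 0.643%. The size of this excess depended on the sites counted and on the total. At its sites with a signal Camk2a had 79, 23, 11 and 26 tags, or 0.493%, 0.348%, 0.185% and 0.426% of all tags. The intervals of replicates 1 and 4 then overlapped. That of replicate 1, 0.396% to 0.614%, did not meet that of replicate 3, 0.103% to 0.331%. Of the tags at signal-bearing sites alone, Camk2a took 0.853%, 0.447%, 0.258% and 0.535%. With all its sites, and with totals that left out the 10 sites with the most tags in the table, it took 1.44%, 0.409%, 0.210% and 0.462%, so replicate 1 then stood further apart. Camk2a made up 92.7%, 82.8%, 57.1% and 71.1% of the tags of the CaMKII subunits (75.9% ± 15.3). It was the leading subunit in each replicate.

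Camk2b encodes the beta subunit, which binds actin filaments. It had 9, 4, 5 and 5 tags, or 0.0562%, 0.0605%, 0.0841% and 0.0820% (0.0707% ± 0.0144, SD, n = 4), and its shares were the most even of the better covered members. Camk2d, the delta subunit gene, had 2, 1, 2 and 2 tags (0.0235% ± 0.0113). Camk2g, the gamma subunit gene, had 1, 0, 2 and 4 tags (0.0264% ± 0.0299), and its mean was 0.0133% without replicate 4, below the 0.0204% of Camk2d over the same libraries. These 3 subunits together had 12, 5, 9 and 11 tags, far below Camk2a in replicate 1 and close to it in replicate 3. The share of Camk2d and Camk2g in any replicate rested on at most 4 tags, so their order cannot be read at this depth.

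Camk2n1, the first inhibitor gene, had 35, 9, 16 and 25 tags. Its share was 0.219%, 0.136%, 0.269% and 0.410% (0.258% ± 0.115, SD, n = 4), and it ranked 24 among all names by total tags and 23 by mean share. Camk2n1 was highest in replicate 4, where Camk2a was not, and lowest in replicate 2. Camk2n2, the second inhibitor gene, had 9, 3, 0 and 2 tags (0.0336% ± 0.0244). Camk2n1 made up 79.5%, 75%, 100% and 92.6% of the tags of the inhibitor pair.

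Camkv encodes a kinase-like protein of synaptic vesicles and spines that lacks kinase activity. It had 4, 2, 1 and 1 tags (0.0221% ± 0.00672, SD, n = 4) and was seen in every replicate. Camkk1 and Camkk2 encode the kinases that phosphorylate CaMKI and CaMKIV, and Camkk2 also acts on AMP-activated kinase. Camkk2 had 2, 1, 0 and 2 tags (0.0151% ± 0.0135), with a mean of 0.00921% without replicate 4. Camkk1 had a single tag, in replicate 4. Camk4 encodes CaMKIV, a mostly nuclear kinase that phosphorylates the transcription factor CREB, and it had 0, 0, 1 and 2 tags (0.0124% ± 0.0157, and 0.00561% without replicate 4). Camkk1, Camkk2 and Camk4 together had 2, 1, 1 and 5 tags, each below the 3 tags that bound a count of 0 except in replicate 4.

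**Figure D1:**
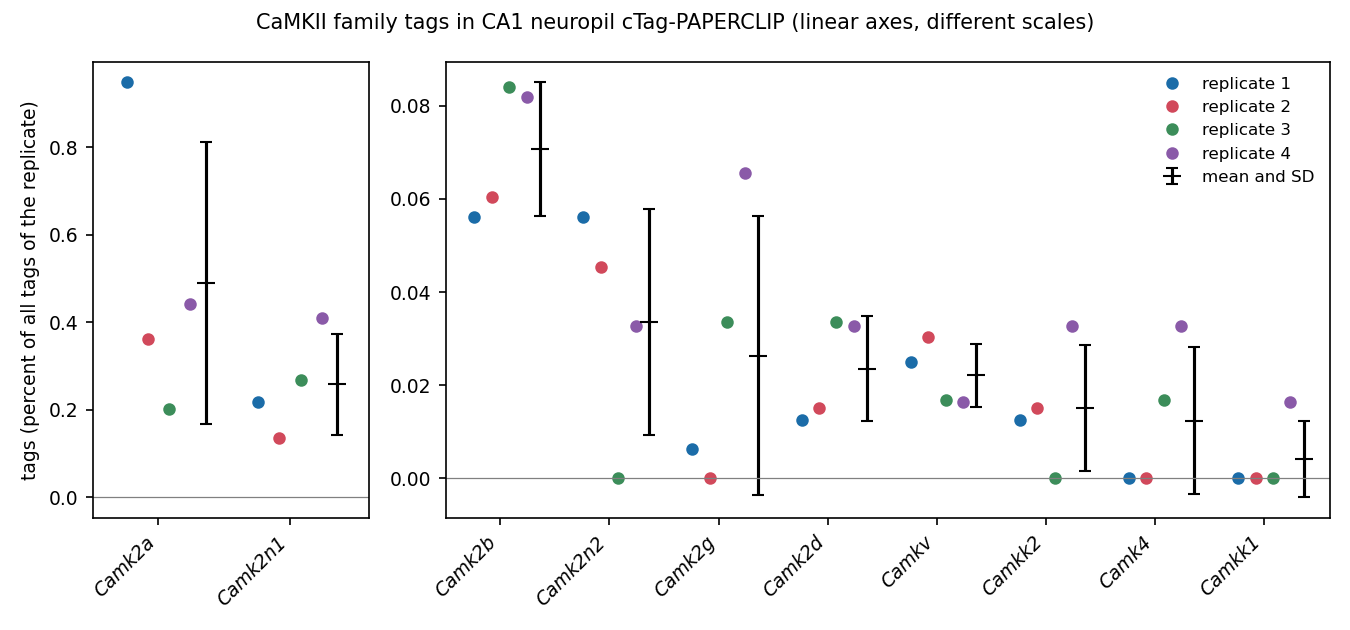
Tags of each gene as a percentage of all tags of the replicate, on linear axes with a separate scale for Camk2a and Camk2n1. Points are the 4 replicates and bars the mean and SD. Camk2a of replicate 1 stands at 0.949%, while Camk2b lies between 0.0562% and 0.0841% in all replicates.

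By mean share the order was Camk2a, Camk2n1, Camk2b, Camk2n2, Camk2g, Camk2d, Camkv, Camkk2, Camk4 and Camkk1. Among neighbours in this order, Camk2n1 and Camk2b alone had ranges over the replicates that did not overlap, with a difference of 0.188 ± 0.105 percentage points (SD of the differences within replicates, n = 4). Camk2a exceeded Camk2n1 in 3 of 4 replicates, by 0.231 ± 0.355 percentage points on average. That difference was smaller than its spread, and the ranges overlapped. The remaining 7 neighbouring pairs also had overlapping ranges.

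The ratio of inhibitor to subunit tags was read within each replicate, where the library total cancels. Differences between genes in the recovery of tags do not cancel, and no protein was measured. The subunits had 164, 29, 21 and 38 tags and the inhibitors 44, 12, 16 and 27. The log2 ratio of inhibitor to subunit tags, with a pseudocount of 1, was -1.87, -1.21, -0.37 and -0.48 (-0.98 ± 0.70, SD, n = 4), so inhibitor tags were fewer in 4 of 4 replicates. Replicates 3 and 4 were close to parity and replicate 1 was the farthest from it. For Camk2n1 over Camk2a alone the log2 ratio was -2.09, -1.32, 0.39 and -0.11 (-0.78 ± 1.13), and its sign was not the same in every replicate. Counting only the most tagged site of each gene gave -1.90, -0.64, 0.54 and -0.05 (-0.51 ± 1.04).

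**Figure D2:**
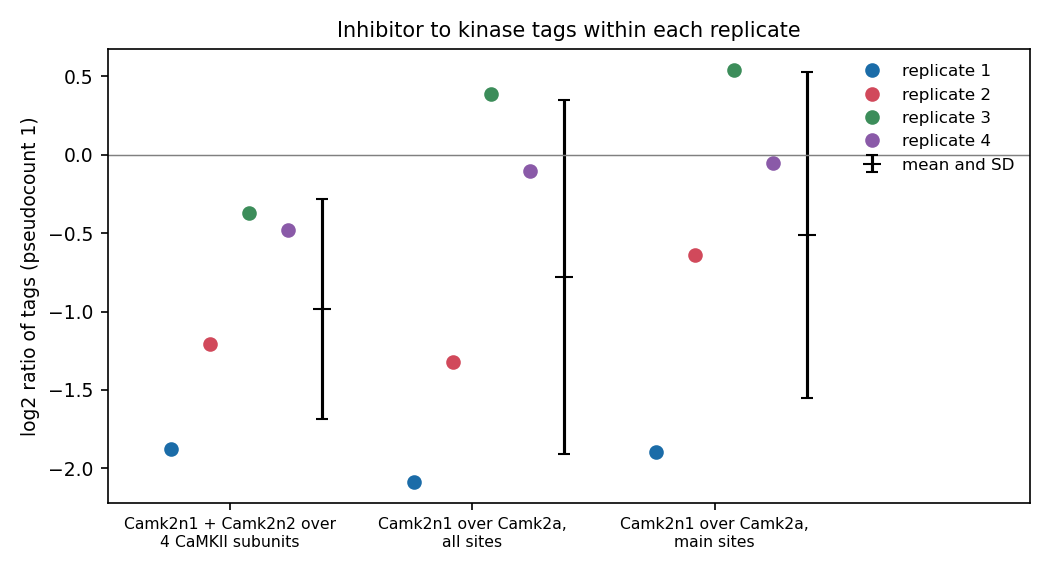
Log2 ratios of inhibitor to kinase tags in each replicate, with the mean and SD of 4 replicates. The inhibitor to subunit ratio is below 0 in each replicate, from -1.87 to -0.37, whereas Camk2n1 over Camk2a crosses 0 in replicate 3.

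As shares of the tags of the family, Camk2a held 71.0%, 54.5%, 30.8% and 38.0% (48.6% ± 18, SD, n = 4) and the inhibitors held 20.6%, 27.3%, 41.0% and 38.0% (31.7% ± 9.50). Replicates 1 and 2 had the higher Camk2a shares, and replicates 3 and 4 the higher inhibitor shares. These parts of a whole are not independent of each other.

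Whether a gene's share of tags varied between the libraries by more than tag counting was tested for every gene name with at least 20 tags, by Fisher's exact test with Benjamini-Hochberg adjustment. This test compares libraries and not conditions. Of 211 names, 147 were called at an adjusted p under 0.05 (69.7%). Of the 3 members with enough tags, Camk2a (adjusted p = 1.06e-11, Fisher's exact test) and Camk2n1 (adjusted p = 0.0277, Fisher's exact test) were called. Camk2b was not (adjusted p = 0.80, Fisher's exact test). A count of 2 in 3 was near the share over all genes, so variation between libraries was not particular to the family. The Camk2a call was lost without replicate 1 (adjusted p = 0.0738, Fisher's exact test). It was kept in the other settings, such as sites with a signal only (adjusted p = 0.000324, Fisher's exact test). The Camk2n1 call was lost without replicate 2 (adjusted p = 0.0879) or replicate 4 (adjusted p = 0.287, both Fisher's exact test), with library totals that left out the 10 sites with the most tags (adjusted p = 0.0621), and with sites that had a signal only (adjusted p = 0.0531).

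Camk2a tags lay at 4 sites of its 3′UTR on chromosome 18, plus strand (mm10, the GRCm38 assembly). The gene spans positions 60925618 to 60988152 in the GENCODE vM21 annotation. The sites stood at positions 60986400, 60987583, 60987975 and 60988126, which is 1623, 2806, 3198 and 3349 bases past the stop codon. All lay 28.3 to 29.99 kb downstream of Mir6982 (positions 60958073 to 60958140), so the name in the table does not mean that the microRNA was tagged. The last site was 26 bases before the annotated end of the gene.

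The site at 3198 bases held 66, 13, 10 and 26 tags in replicates 1 to 4, which was 43.4%, 54.2%, 83.3% and 96.3% of Camk2a tags (69.3% ± 24.7, SD, n = 4). It had the most Camk2a tags over all replicates and an AATAAA or ATTAAA hexamer that began at the listed base. The site at 3349 bases, 151 bases further, held 13, 10, 1 and 0 tags, or 8.55%, 41.7%, 8.33% and 0%. Replicate 2 was the highest there, and its interval of 24.5% to 61.2% did not meet that of replicate 1, 5.07% to 14.1%.

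The shorter form, at 1623 bases, held 69, 1, 1 and 0 tags, or 45.4%, 4.17%, 8.33% and 0% of Camk2a tags. It was thus almost wholly a feature of replicate 1, with an interval there of 37.7% to 53.3%. It lay 7 bases before an annotated transcript end. It had no polyA signal within 50 bases and no run of 8 or more A. Its 30 downstream bases held 22 A, more than at 94.8% of all sites, where the median was 11. The site at 2806 bases held 4, 0, 0 and 1 tags, had no signal and lay beside a run of 10 A. Of the Camk2a tags, 73, 1, 1 and 1 were at the pair of sites without a signal. Whether priming on genomic A gave such tags was not tested.

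Camk2n1 tags also lay at 4 sites, all in its 3′UTR on chromosome 4, plus strand (gene 138454314 to 138460123). They stood at positions 138457076, 138457745, 138458121 and 138460102, or 291, 960, 1336 and 3317 bases past the stop codon. The site at 1336 bases, shown above with its AATAAA, held 17, 8, 15 and 25 tags, or 48.6%, 88.9%, 93.8% and 100% (82.8% ± 23.3, SD, n = 4). It lay 2002 bases before the annotated gene end. The site at 3317 bases, 21 bases before the gene end, had 1 tag, in replicate 2.

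The proximal Camk2n1 site, at 291 bases, held 17, 0, 1 and 0 tags, or 48.6%, 0%, 6.25% and 0%. As for the shorter Camk2a form, nearly all of these were from replicate 1. The run of 9 A printed above begins 1 base after it, and a signal hexamer began 27 bases after it. The site at 960 bases had 1 tag, in replicate 1, beside a run of 10 A. Together 18, 0, 1 and 0 Camk2n1 tags lay beside such runs. Over the whole table, sites beside runs of at least 8 A took 39.7%, 20.4%, 19.8% and 12.9% of tags, and without the 10 sites with the most tags 14.5%, 17.4%, 18.2% and 11.5%. The part of these runs in the results of replicate 1 was not tested.

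The split of tags over sites was tested between replicates by Fisher's exact test for genes with at least 20 tags at more than 1 site, using sites seen in more than 1 replicate. Of 50 genes, 13 were called (26.0%). The test could be run on 2 members, and both were called. Camk2a had an adjusted p of 8.01e-10 and Camk2n1 one of 3.42e-05 (Fisher's exact test). For Camk2a the difference was also found without replicate 1 (adjusted p = 0.00214, Fisher's exact test). With only sites that had a signal, which leaves those at 3198 and 3349 bases, it was still called (adjusted p = 0.00476, Fisher's exact test). For Camk2n1 it could not be tested without replicate 1, without replicate 3 or without sites beside runs of A, since fewer than 2 sites then met the limits.

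**Figure D3:**
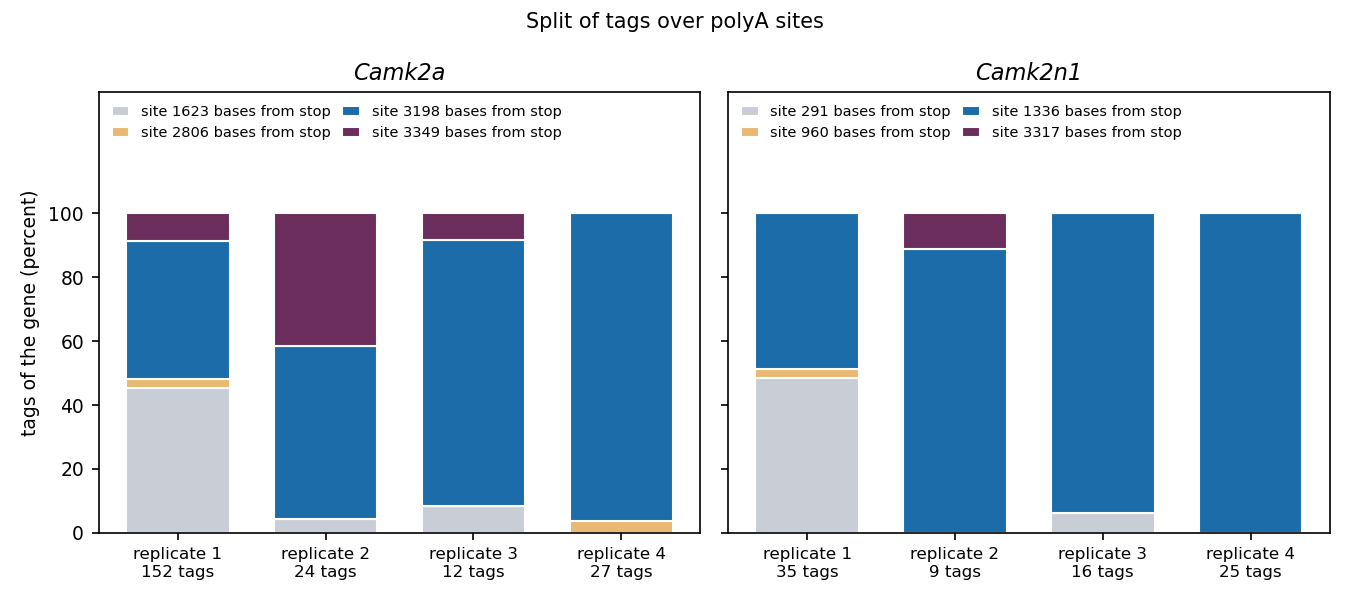
Split of Camk2a and Camk2n1 tags over their polyA sites in each replicate, in percent of the gene's tags, with sites named by distance from the stop codon. In replicate 1 the Camk2a site at 1623 bases takes 45.4% and the Camk2n1 site at 291 bases 48.6%, against 8.33% and 6.25% at most elsewhere.

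The other members had 1 or 2 listed sites each. Their totals were 1 to 23 tags. At this depth the number of their 3′ ends cannot be compared with that of Camk2a or Camk2n1. Camk2b had 1 site (chromosome 11, minus strand, position 5969684), 2147 bases past the stop codon. Its signal began 14 bases after the listed base and overlapped a run of 25 A that began 17 bases after that base. The site took all 23 Camk2b tags, so counting only sites away from runs of A leaves no Camk2b level. Camk2n2 had 1 site (chromosome 16, minus strand, position 20619247) at 929 bases and 32 bases before the gene end. Camkv had 1 site (chromosome 9, plus strand, position 107949663) at 1326 bases and 28 bases before the gene end. Camkk1 had 1 site (chromosome 11, plus strand, position 73042056) at 1766 bases, beside a run of 10 A.

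Camk2d, Camk2g and Camkk2 each had a main site with a signal and a more proximal site with 1 tag, no signal and a run of A. In Camk2d (chromosome 3, plus strand) the main site at position 126844890, 2158 bases past the stop codon, had 2, 1, 1 and 2 tags. In Camk2g (chromosome 14, minus strand) that at position 20734898, at 1970 bases, had 1, 0, 1 and 4 tags. In Camkk2 (chromosome 5, minus strand) that at position 122731196, at 2882 bases, had 1, 1, 0 and 2 tags. The runs of A at the proximal sites were 8, 13 and 20 bases long, respectively, and those proximal sites lay 32, 3 and 8 bases before annotated transcript ends.

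Both Camk4 sites lay past the GENCODE vM21 gene on chromosome 18, plus strand, by 1602 and 4517 bases. The RefSeq gene model of the same assembly runs further and holds both. Against it the sites at positions 33192830 and 33195745 lay 7629 and 10544 bases past the stop codon, and the second was 22 bases before the end of that model. Each had a polyA signal, and they held 1 and 2 tags. These were the tagged ends farthest from a stop codon in the family, on 3 tags in all.

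**Figure D4:**
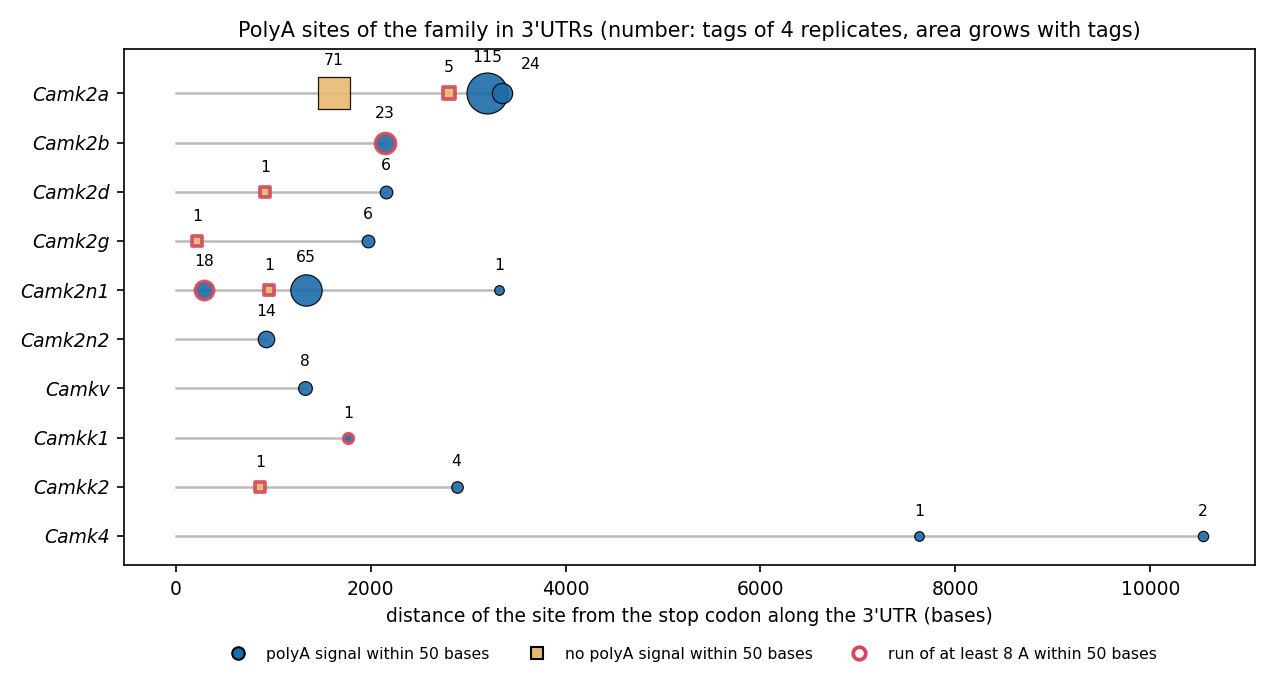
PolyA sites of the 10 genes by distance in bases from the stop codon along the 3′UTR, with the tags of all 4 replicates printed above each symbol, whose area grows with them. Circles mark sites with a polyA signal and squares sites without, and red edges mark runs of at least 8 A. The Camk2a site at 3198 bases holds 115 tags and the Camk4 sites lie farthest out, at 7629 and 10544 bases.

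Of the 20 sites, 13 (65.0%) had tags in more than 1 replicate, against 34.2% of all sites in the table, 5 had tags in every replicate and 7 in a single replicate. Sites in more than 1 replicate held 98.1% of the tags of the family and 77.8% of all tags. Well-tagged genes are seen in more replicates, and these genes were chosen with their counts known, so the shares are set side by side with no test. Over the 6 members with more than 1 site, the most distal site took 8.85%, 37.1%, 12.1% and 14.5% of tags in replicates 1 to 4 (18.2% ± 12.9, SD, n = 4). The mean was 11.8% without replicate 2. With only sites seen in more than 1 replicate it was 44.4%, but that value covers Camk2a and Camk2n1 alone, since no other member had more than 1 such site, and takes the Camk2n1 site at 1336 bases as its most distal.

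A polyA signal, AATAAA or ATTAAA within 50 bases on either side on the strand of the gene, was present at 14 of the 20 sites (70.0%, 95% Wilson interval 48.1% to 85.5%) and at 78.1% of all sites. At sites seen in more than 1 replicate, a signal on either side was present at 11 of 13, against 84.3% in the table. A whole signal upstream of the listed base was found at 1 of 20 sites, against 27.7% of all sites. Runs of at least 8 A lay within 50 bases of 8 sites (40.0%, 21.9% to 61.3%) and of 18.9% of all sites. Among the 7 sites seen in a single replicate, 5 had such a run and 3 a signal, against 22.4% and 74.9% of all sites seen in a single replicate. TTTTAT, the core of the cytoplasmic polyadenylation element, occurred within 100 bases on the same strand at 3 of 20 sites and at 24.9% of all sites. TGTANATA, the Pumilio motif, occurred at 1 of 20, the main Camk2d site, and at 7.67% of all sites. These matches describe letters in a window and no binding was measured.

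Genes that act with the kinase were read from lists by role. Of the genes for calmodulin, the Ca2+ sensor that activates CaMKII, Calm2 had 16, 5, 9 and 13 tags and Calm3 had 39, 17, 3 and 12 tags in replicates 1 to 4 (0.187% ± 0.0946 for Calm3, SD, n = 4). Calm3 was highest by share in replicate 2 and lowest in replicate 3, where Camk2a was also lowest. Nrgn, which encodes the calmodulin-binding protein neurogranin, had 32, 6, 6 and 9 tags. Pcp4, another calmodulin-binding protein gene, had 8, 5, 3 and 4.

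Among the synaptic partners and substrates, 9 of 9 genes had tags. Dlg4, which encodes the postsynaptic scaffold PSD-95, had 45, 26, 11 and 17 tags (0.285% ± 0.0853, SD, n = 4). Shank3, another scaffold gene, had 39, 9, 0 and 2. Ppp3ca, the catalytic subunit of the opposing phosphatase calcineurin, had 24, 1, 7 and 17. The remaining lists were sparse, with 16 tags over 6 of 8 other calmodulin-dependent kinases and 16 over 4 phosphatases of the CaM kinases. Of the nuclear targets, Creb1, the gene for CREB, had 0, 0, 1 and 1 tags and Crtc1, a CREB coactivator gene, had 3, 0, 1 and 1. Camk1g, Eef2k, Gap43 and Ppp3r1 had no sites under those names.

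The genes whose split over the 4 replicates was most like that of a member were sought among 54 other genes with at least 50 tags, by the total variation distance between profiles (0 for the same profile, 1 for no overlap). For Camk2a these were Nrgn (0.132), Cox6a1 (0.139) and Tmsb4x (0.187), with a median of 0.378 over the candidates. For Camk2n1 they were Map2 (0.0472), Wdr92 (0.0676) and Ndufa4 (0.0940), with a median of 0.434. For Camk2b they were Ndufa4 (0.0352), Gpm6a (0.0613) and Olfm1 (0.0868), with a median of 0.410. Profiles of 4 libraries share depth and composition, so likeness is a description only.

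The cell type was read from marker lists. Pyramidal neuron markers had tags for 6 of 7 genes, with Slc17a7 at 0, and took 0.521% to 1.45% of tags, but Camk2a gave most of these tags over all replicates together. Without it the list took 0.506%, 0.499%, 0.319% and 0.492%, and replicate 1 no longer stood apart. Interneuron markers had tags for 3 of 6 genes (Gad2, Slc32a1 and Vip at 0), at 0.0250% to 0.0492%. Astrocyte markers had tags for 5 of 5 genes (0.0492% to 0.237%) and oligodendrocyte markers for 4 of 4 (0.131% to 0.514%). Microglial markers had tags for 1 of 4 genes and endothelial markers for 1 of 3, each at 0.0168% or less. Astrocyte tags were highest in replicate 1 and oligodendrocyte tags in replicate 2, and their part in the shares above was not tested.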

How the data were processed

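The libraries were 4 replicates of cTag-PAPERCLIP from CA1 neuropil. The authors deposited raw tag counts (whole numbers) per polyA site, each site being a single base with its strand and gene. The methods state that tags were mapped to the genome and clustered with the CTK package. The submitters' processing notes name cutadapt, Novoalign and mm10. Whether duplicate tags were collapsed was not given in the sources used here, and a collapse or its absence would change the spread of counts. All 9294 sites on reference chromosomes fell within GRCm38. Sites were placed with GENCODE release M21 and, for Camk4, with RefSeq, and sequences were read with pysam 0.24.0. Shares used all tags of a replicate, with 95% Wilson intervals and a limit of 3 tags for a count of 0. Fisher's exact tests ran in R 4.3.3 on all gene names with at least 20 tags, with Benjamini-Hochberg adjustment, called at an adjusted p under 0.05. For 1 of 211 names the p came from 100000 Monte Carlo resamples. Tests were tried on simulated data first. Replicates are pools of mice. The p-values set differences between these libraries against tag counting, with each tag as a unit, and do not measure the spread between pools. All members were named, with the 3 most alike genes for each member with at least 20 tags and the genes of the related list with at least 20 tags, apart from some items of that list that are not reported here. Members and lists were chosen with earlier results of these data known. Alternatives covered the tag minimum, the sites counted, library totals and each replicate left out, and those on runs of A and signals were chosen after seeing the data.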

Additional observations from a re-analysis of the deposited data

Results flagged for a closer look

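Camkk1 had a tag share of 0.0164% in replicate 4 and 0 in the other replicates, which set that replicate apart from the rest of its group. The value rests on 1 tag and is below the limit of 0.0492% that a count of 0 allows in that replicate. The rule flags any gene with tags in only 1 replicate, whatever its value. Of 16 groups of values tested in this way 1 stood out. Chance would give about 0.8 for normally distributed values, which counts this low are not.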

How the results depend on the processing

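Of 68 alternatives for the main results, 54 stayed near the main value. Near meant within 1 SD for a mean, a similar size for a count, or inside the Wilson interval for the signal share. The inhibitor to subunit ratio, the only main value that could change sign, stayed negative in all its alternatives. The share at the most distal site was 44.4% when only sites with tags in more than 1 replicate were counted, which left Camk2a and Camk2n1, and 5 member sites had tags in every replicate. A whole signal upstream was found at 5% of the 20 member sites. With at least 50 tags, 48 of 56 names were called for gene share and 7 of 17 genes for site usage. Without sites beside runs of A, 8 of 35 were called for site usage. With only sites that had a signal, 86 of 146 were called for gene share and 5 of 26 for site usage. Leaving out a replicate gave 83 to 108 calls for gene share and 5 to 7 for site usage. Other values are given with the results. The causes were not tested, beyond fewer genes tested in these settings. Tag depth limits every member, and with any replicate left out Camk2b fell below the minimum for the test. No paired analysis was possible because all libraries belong to 1 group, so that no samples could be paired between groups.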
